A study of Mus musculus with 6 samples.

Results

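The genes described here are the 35 members of the apoptosis machinery given by a list of anti- and pro-apoptotic BCL2 proteins, caspases, inhibitors of apoptosis and death receptors with their adaptors. They were chosen by name, with earlier results of these data known. All 35 were found among the 27179 Entrez identifiers of the count tables. RNA was measured in mouse germinal vesicle (GV) oocytes, the fully grown oocytes still arrested in prophase of meiosis I, in 3 libraries from maternal Prdm10 knockout and 3 from wildtype oocytes, each from a pool of about 10 cells. In the knockout, exon 5 of Prdm10, flanked by loxP sites, was deleted by Cre recombinase under Zp3 control, a promoter active in growing oocytes, so the gene was lost within the oocyte and not in the rest of the mouse. The wildtype group is labelled only as wildtype or control, and its strain and age and the number of mice are not known here; the p-values therefore cover only variation among pools. The question was which of these transcripts a fully grown oocyte holds, in what balance, and which changed when Prdm10 was missing.

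Apoptosis is run by opposing proteins of the BCL2 family at the mitochondrion. BAX, BAK and BOK open the outer membrane, anti-apoptotic members such as BCL2, BCL-XL (Bcl2l1) and MCL1 hold them in check, and BH3-only proteins relay damage by blocking the guardians or activating the pore formers. Released cytochrome c (Cycs) joins APAF1 to activate caspase-9, whereas death receptors at the cell surface recruit FADD and caspase-8, and XIAP and its relatives bind caspases or the receptor complexes. In the ovary this machinery removes damaged oocytes, and the BH3-only proteins NOXA (Pmaip1) and PUMA (Bbc3) are known as p53-family targets in oocytes with DNA damage.

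Totals over genes lay between 22492228 and 38831227 counts per library. Levels are given as CPM (counts scaled to library size after TMM adjustment for composition). Prdm10 was at 2.80 to 3.82 CPM in the knockout libraries and 10.4, 23.1 and 22.95 CPM in wildtype replicates 1 to 3. The difference was -2.54 on the log2 scale (edgeR's quasi-likelihood test, adjusted p = 0.00436). Wildtype replicate 1 stood apart from the other wildtype libraries: of 26 members with at least 1 CPM in wildtype, 3 differed there by over 2-fold from the mean of replicates 2 and 3 (11.5%, against 10.8% of 12716 tested genes at that level), and 0 differed that much between replicates 2 and 3. Calls are therefore also given without it. Markers of the oocyte were abundant in every library, with 12 markers summing to 25600 CPM or more, the least in wildtype replicate 1. Single markers differed there: Bmp15 was at 2105 CPM against 5603 and 5368 in wildtype replicates 2 and 3, and Nlrp5 at 630 against 1561 and 1521. Kit was at 167 against 479.5 and 461 CPM, whereas Oosp1 was higher, at 2292 against 1200 and 1179 CPM. Figla was alike, at 40.85, 42.01 and 40.42 CPM in wildtype replicates 1 to 3. The 12 granulosa and cumulus markers summed to 462 to 499 CPM in knockout and 268 to 420 CPM in wildtype libraries, and 0 of 12 passed the test. Most of the sum was Serpine2 (177 to 407 CPM over the 6 libraries), so it mainly follows that gene. Single markers went either way, with log2 fold changes of 0.51 for Serpine2 and 0.75 for Fshr, but -0.44 for Cyp19a1 and -0.32 for Kitl. Cyp19a1 was at 25.1 to 30.6 CPM in knockout and 27.1 to 47.3 CPM in wildtype libraries. Amh, Fshr and Foxl2 stayed at 2.28 CPM or less in every library. The 10 theca and stroma markers summed to at most 21.6 CPM, in wildtype replicate 1, with knockout replicate 3 next at 19.0 CPM and the other 4 libraries at 7.21 CPM or less. Of the 10 blood, immune and endothelial markers 7 were under 1 CPM in every library, among them Ptprc, Lyz2 and Cdh5, which was at 0; the list summed to 117 to 121 CPM in knockout and 36.6 to 82.3 CPM in wildtype libraries, most of it Pecam1 (103 to 105 against 30.4 to 75.7 CPM), and Cd68, a lysosomal protein of macrophages, rose (log2 2.28, adjusted p = 0.0108, edgeR). The part of such cells in the changes below was not tested. In RNA pooled from several cells, fewer expressing cells and less RNA per cell cannot be told apart.

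In short, 2 members rose in knockout oocytes, the death receptor gene Tnfrsf21 and the initiator caspase gene Casp9, and 1 fell, the scarce Bcl2. Of the 30 members with enough counts to test, these 3 passed an adjusted p of 0.05 (10.0%), beside 11.2% of all 14957 tested genes (5.87% higher, 5.34% lower), so the share of members called was close to that of all genes. The groups' libraries did not overlap for 15 of the 30, beside 40.2% of all tested genes. The median log2 fold change of the 30 was 0.04 and that of all tested genes 0.00. The other 5, Bak1, Bmf, Hrk, Tnfrsf10b and Tnfrsf1a, had too few counts.

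The 250 bases upstream of the RefSeq start are shown for the 3 members that changed (GRCm38.p6, RefSeq, read 5′ to 3′ on the gene's strand). Entries were found for 30 of the 35 members. The start sites used in these oocytes were not measured, so the windows need not be the promoters in use. Tnfrsf21 lies on the plus strand (chr17:43016305-43016554), Casp9 on the plus strand (chr4:141793362-141793611) and Bcl2 on the minus strand (chr1:106714291-106714540). Capitals mark GC boxes (GGGCGG or its reverse complement CCGCCC), searched with the CCAAT box (CCAAT or ATTGG) and the TATA box (TATAAA or TTTATA) on both strands.
Tnfrsf21: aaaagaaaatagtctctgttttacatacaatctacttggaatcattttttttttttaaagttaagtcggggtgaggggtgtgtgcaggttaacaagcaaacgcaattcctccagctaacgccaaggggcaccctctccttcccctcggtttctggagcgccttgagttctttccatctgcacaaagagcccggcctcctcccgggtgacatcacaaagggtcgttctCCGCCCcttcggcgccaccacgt
Casp9: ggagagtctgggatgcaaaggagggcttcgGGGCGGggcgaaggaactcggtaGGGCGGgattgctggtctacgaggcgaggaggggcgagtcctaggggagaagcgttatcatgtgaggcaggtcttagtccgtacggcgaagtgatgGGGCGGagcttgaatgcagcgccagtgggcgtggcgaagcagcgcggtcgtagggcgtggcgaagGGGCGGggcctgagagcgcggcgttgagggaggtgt
Bcl2: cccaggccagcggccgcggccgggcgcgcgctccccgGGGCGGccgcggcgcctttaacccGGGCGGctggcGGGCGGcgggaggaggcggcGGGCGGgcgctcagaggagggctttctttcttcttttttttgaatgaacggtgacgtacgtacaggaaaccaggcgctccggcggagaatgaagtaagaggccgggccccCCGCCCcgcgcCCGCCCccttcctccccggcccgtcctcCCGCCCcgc
The Tnfrsf21 window held 1 GC box, the Casp9 window 4 and the Bcl2 window 7, and none of the 3 held a CCAAT or TATA box. Among 32817 such windows over the genome, 32.7% held a GC box, 33.8% a CCAAT box and 12.4% a TATA box. The share of G and C was 50.4% for Tnfrsf21, 66.0% for Casp9 and 74.8% for Bcl2, with a median of 52.4% over all windows, and the windows held 12, 25 and 36 CG dinucleotides beside a median of 6. The window of the member that rose most was thus the poorest in G and C of the 3, and that of the member that fell the richest. These 3 windows allow no further statement, and a match to these letters is a description, not a binding site.

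Levels were compared between genes as CPM per kb of exonic length. The dominant member by far was Bcl2l10 (also called Diva or Boo), a BCL2 relative known for its expression in the oocyte. Bcl2l10 was counted as anti-apoptotic because the list places it there. It had 3685, 3370 and 3274 CPM in wildtype replicates 1 to 3 and 3035, 3293 and 3261 CPM in knockout replicates 1 to 3. The groups overlapped, and the difference was -0.11 on the log2 scale (SE 0.112, adjusted p = 0.551, edgeR). Per kb it stood at 2822 ± 176 CPM in wildtype (SD, n = 3) and ranked 5th from the top of all tested genes with a known length. No other anti-apoptotic member came near: Bcl2l1 had 45.8 ± 7.10 CPM per kb in wildtype oocytes, Mcl1 2.58 ± 1.09, Bcl2l2 0.189 ± 0.211 and Bcl2 0.0703 ± 0.0232 (SD, n = 3 each). Bcl2l10 made up 98.1% to 98.7% of the summed per-kb level of the 5 anti-apoptotic genes in wildtype and 97.9% to 98.3% in knockout libraries.

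**Figure D1:**
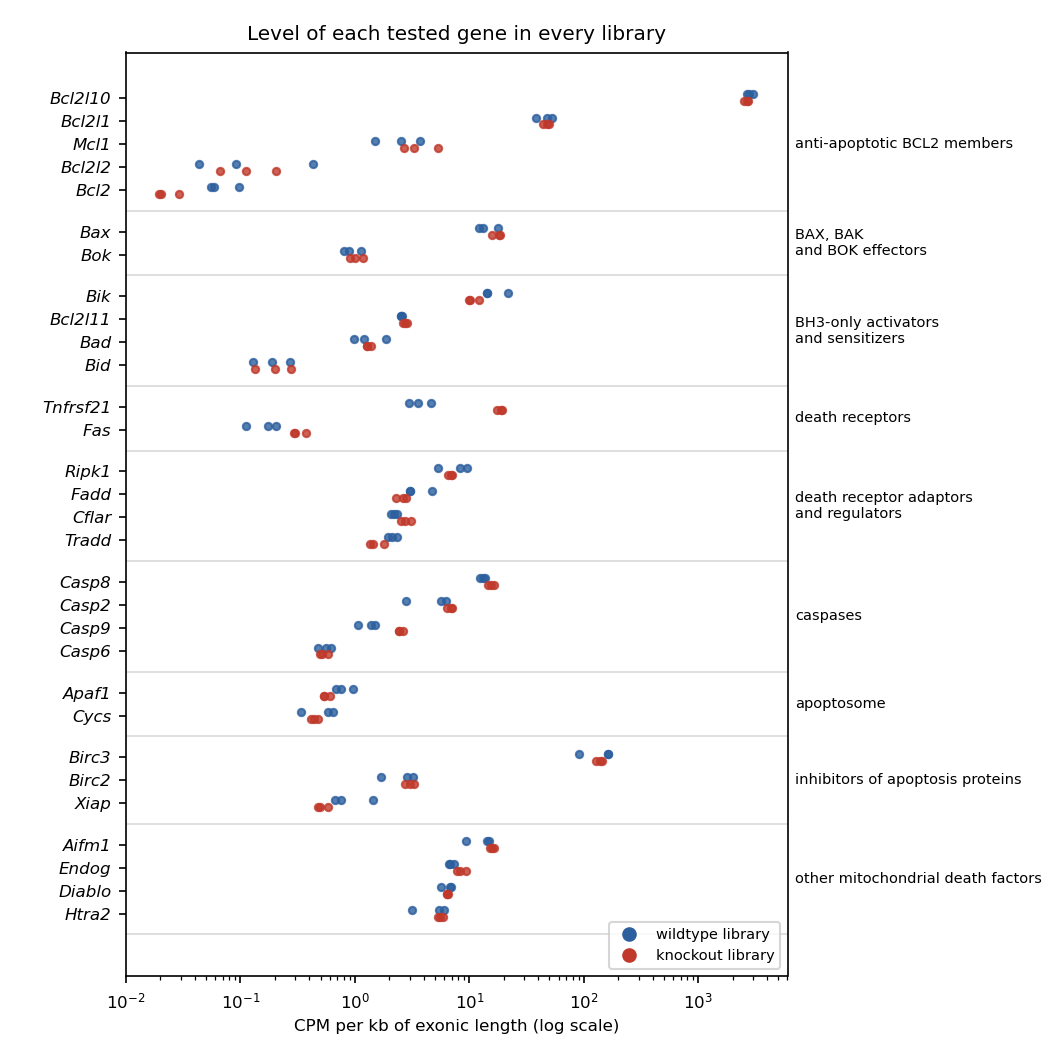
CPM per kb of exonic length (log axis) of the 30 tested members by role; each point is a library, blue for wildtype and red for knockout, 3 per group. Bcl2l10 stands near 2822 CPM per kb, Birc3 near 138 and Bcl2l1 near 45.8 in wildtype, whereas Bcl2 lies under 0.1 in every library.

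Pore-forming members were far less abundant as mRNA. Bax had 28.2, 20.6 and 19.2 CPM in wildtype and 24.7, 29.0 and 28.3 CPM in knockout libraries, so wildtype replicate 1 fell among the knockout values (log2 0.27, SE 0.173, adjusted p = 0.344, edgeR). Without that library Bax passed the test, at log2 0.46 (edgeR, adjusted p = 0.00614). Bok, the BCL2 relative that can act without BAX and BAK, had 0.936 ± 0.177 CPM per kb in wildtype, beside 14.4 ± 3.07 for Bax, and differed by 0.12 on the log2 scale (edgeR, adjusted p = 0.773). Bak1 was near the limit of detection, with 1, 2 and 3 counts in knockout and 13, 0 and 0 counts in wildtype replicates 1 to 3; a count of 0 allows up to 0.116 and 0.137 CPM in wildtype replicates 2 and 3, for counting error only.

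The mRNA balance between these groups was read as the log2 ratio of the summed CPM per kb of the 5 anti-apoptotic genes to that of Bax, Bak1 and Bok. It was 7.32, 7.66 and 7.72 in wildtype and 7.25, 7.15 and 7.15 in knockout replicates 1 to 3. The knockout values were all lower, with means of 7.57 ± 0.214 and 7.19 ± 0.0599 (SD, n = 3 each), but wildtype replicate 1 was only slightly above knockout replicate 1. Leaving Bcl2l10 out of the sum brought the ratio down to 1.07, 1.98 and 1.97 in wildtype and 1.72, 1.41 and 1.30 in knockout libraries, and the groups then overlapped. Against the summed BH3-only genes the order was the other way round, at 6.85, 7.28 and 7.23 in wildtype and 7.46, 7.57 and 7.39 in knockout libraries. Without Bcl2l10 that ratio was 0.596, 1.60 and 1.48 in wildtype and 1.92, 1.83 and 1.54 in knockout libraries, and the groups overlapped there too. The 6 BH3-only members summed to 20.98 ± 4.86 CPM per kb in wildtype and 15.05 ± 1.01 in knockout libraries. Pmaip1, a BH3-only gene outside the 35, was left out of that sum and rose from 0.224 ± 0.0723 to 2.63 ± 0.27 CPM per kb. The order against BH3-only genes therefore holds for the listed members only, and a ratio with Pmaip1 was not computed. A high level of Bcl2l10 thus set the ratio in both genotypes, so the balance rests on counting Bcl2l10 as anti-apoptotic. The action of Bcl2l10 in these oocytes was not tested, and these ratios of mRNA levels are descriptions without a test.

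**Figure D2:**
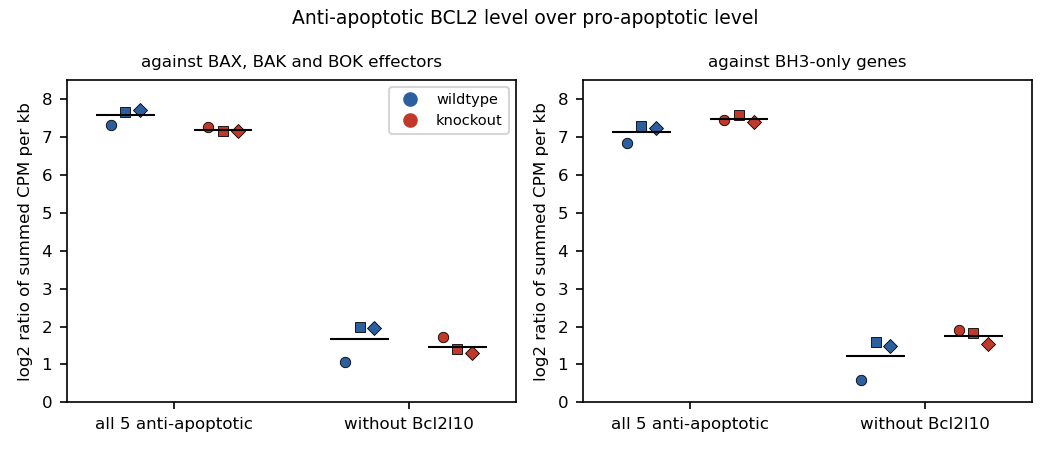
Log2 ratio of summed CPM per kb of anti-apoptotic BCL2 genes, with and without Bcl2l10, to pro-apoptotic genes. The left panel has the effectors Bax, Bak1 and Bok, and the right panel the 6 BH3-only members, which do not include Pmaip1. Points are libraries (circle, square and diamond for replicates 1, 2 and 3) and lines are means. With all 5 genes the wildtype ratio to effectors lies at 7.32 to 7.72 and the knockout ratio at 7.15 to 7.25; without Bcl2l10 the values are 1.07 to 1.98 and 1.30 to 1.72.

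Bcl2, the founding anti-apoptotic member (Entrez 12043, chromosome 1), fell 3.11-fold but was scarce in both genotypes. It had 37, 14 and 11 counts in wildtype and 6, 7 and 10 counts in knockout replicates 1 to 3, or 0.888, 0.539 and 0.503 against 0.177, 0.187 and 0.265 CPM. The groups did not overlap, and wildtype replicate 1 was the highest (log2 -1.64, SE 0.387, adjusted p = 0.0356, edgeR). Leaving that library out, the log2 fold change was -1.30 (adjusted p = 0.0453, edgeR), and without any 1 of the knockout replicates, or without wildtype replicate 2 or 3, it did not pass (adjusted p up to 0.154, edgeR). Mcl1, a short-lived guardian, was at log2 0.55 (adjusted p = 0.349) and Bcl2l1 of 0.04 (adjusted p = 0.874). Bcl2l2, which encodes BCL-W, stood at -0.67 (adjusted p = 0.591, edgeR) and at 0.93 without wildtype replicate 1 (adjusted p = 0.246).

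Among BH3-only genes Bik and Bcl2l11, which encodes BIM, were the most abundant and none passed the test. Bik, a BH3-only protein of the endoplasmic reticulum and mitochondrion, had 34.8, 22.7 and 22.7 CPM in wildtype and 15.9, 16.2 and 19.1 CPM in knockout libraries. Every knockout library was lower (log2 -0.65, SE 0.198, adjusted p = 0.0759, edgeR), and Bik passed without wildtype replicate 1, at log2 -0.41 (edgeR, adjusted p = 0.0130). Bcl2l11 varied little, between 20.3 and 22.7 CPM over the 6 libraries (log2 0.11, adjusted p = 0.570). Bad, an antagonist of BCL-XL that survival kinases silence, and Bid, which caspase-8 cleaves, had log2 fold changes of -0.06 and 0.05. Bmf and Hrk were under 0.6 CPM in every library.

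Of the receptors Tnfrsf21 changed most. Tnfrsf21 (Entrez 94185, chromosome 17) encodes death receptor 6, a death domain receptor known for roles in axons and lymphocytes. It had 14.6, 12.2 and 18.8 CPM in wildtype and 72.0, 79.3 and 78.0 CPM in knockout replicates 1 to 3. The lowest knockout library was far above the highest wildtype library, a 5.03-fold rise (log2 2.33, SE 0.176, adjusted p = 0.000467, edgeR), and wildtype replicate 1 lay within the range of the other wildtype libraries. Per kb its level went from 3.71 ± 0.806 to 18.6 ± 0.946 CPM (SD, n = 3 each), which brought it near Bax (17.3 ± 1.48) in knockout oocytes. It kept its call in each of the 15 alternative analyses, with log2 fold changes from 2.19 to 2.51.

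The other receptors were barely detected. Fas, the receptor for FAS ligand, had 0.360, 0.424 and 0.229 CPM in wildtype and 0.766, 0.614 and 0.609 CPM in knockout libraries. Its knockout values were all higher, but on few counts (15, 11 and 5 against 26, 23 and 23), and it did not pass (log2 0.94, SE 0.332, adjusted p = 0.110, edgeR). Tnfrsf10b, the mouse TRAIL receptor, and Tnfrsf1a, the main TNF receptor, stayed at 15 counts or fewer in every library.

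Downstream of the receptors, 0 of the 4 adaptors and regulators passed in the fit of all 6 libraries, and the fold changes were small in both directions. Ripk1, the kinase that steers TNF signalling to survival or death, had 44.4, 78.7 and 68.4 CPM in wildtype and 57.3, 53.8 and 58.2 CPM in knockout libraries. Wildtype replicate 1 was the lowest of the 6 (log2 -0.18, SE 0.203, adjusted p = 0.593, edgeR), and without it Ripk1 passed as lower, at -0.38 (adjusted p = 0.00356, edgeR). Cflar, which encodes the caspase-8 regulator FLIP, had every knockout library higher, at a log2 fold change of 0.35 (adjusted p = 0.128), and passed without wildtype replicate 1 at 0.30 (adjusted p = 0.0412, edgeR). Fadd and Tradd, the death domain adaptors of FAS and of the TNF receptor, had every knockout library lower, at -0.47 (adjusted p = 0.182) and -0.48 (adjusted p = 0.141), and did not pass without that library either.

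Casp9, the caspase that the apoptosome activates (Entrez 12371, chromosome 4), was the one member of its group to pass. It had 5.52, 7.20 and 7.73 CPM in wildtype and 13.6, 12.5 and 12.5 CPM in knockout replicates 1 to 3. All knockout libraries were higher, a 1.90-fold rise (log2 0.92, SE 0.169, adjusted p = 0.0155, edgeR). The call held without any 1 of the wildtype replicates and was lost without any 1 of the knockout replicates (adjusted p of 0.0721 to 0.0853, edgeR). Casp9 overlaps Cela2a, a pancreatic elastase gene counted at 1.26 to 3.84 CPM with a log2 fold change of -0.73 (adjusted p = 0.166), so reads could be shared. Tnfrsf21 and Bcl2 overlap no other counted gene. In all, 10 members overlap another counted gene. Among them, Bad overlaps Gpr137 (29.0 to 54.6 CPM), Bcl2l11 overlaps Acoxl (16.1 to 27.2 CPM) and Endog overlaps Spout1 (21.5 to 31.2 CPM). Reads could be shared there too, and Bad and Bcl2l11 enter the BH3-only sum.

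The partners of caspase-9 in the apoptosome did not pass. Apaf1, the scaffold, had 6.17, 8.66 and 6.86 CPM in wildtype and 4.83, 4.86 and 5.51 CPM in knockout libraries. Every knockout library was lower (log2 -0.51, SE 0.181, adjusted p = 0.111, edgeR), and Apaf1 passed as lower without wildtype replicate 1, at -0.62 (adjusted p = 0.00963, edgeR). Cycs, cytochrome c, was at 1.77 ± 0.542 CPM in wildtype and 1.51 ± 0.101 in knockout oocytes (SD, n = 3 each); it has processed copies in the genome that could take its reads, so this level is uncertain. Among the other caspases, Casp8, the initiator of the receptor pathway, had 35.7, 39.5 and 38.1 CPM in wildtype and 41.8, 47.1 and 44.6 CPM in knockout libraries. The knockout values of Casp8 were all higher, by 0.24 on the log2 scale (SE 0.117, adjusted p = 0.226, edgeR). Casp2, a caspase known in mice for its part in oocyte loss, was 0.47 higher on the log2 scale (adjusted p = 0.290) or 0.19 without wildtype replicate 1, and Casp6, an executioner, had a log2 fold change of -0.06.

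Inhibitors of apoptosis proteins were unequal in level. Birc3, which encodes the ubiquitin ligase cIAP2, ranked 341st of the tested genes with a known length in wildtype, at 138 ± 41.2 CPM per kb. Its close relative Birc2 (cIAP1) had 2.58 ± 0.796 and Xiap 0.951 ± 0.420 (SD, n = 3 each). Birc3 had 453, 805 and 815 CPM in wildtype and 634, 727 and 686 CPM in knockout libraries. The wildtype libraries lay on both sides of the knockout libraries (log2 -0.02, SE 0.221, adjusted p = 0.966, edgeR), and without wildtype replicate 1, the lowest, Birc3 passed as lower, at -0.25 (adjusted p = 0.00965, edgeR). Xiap, which binds caspase-9 directly, had 13.6, 6.28 and 7.18 CPM in wildtype and 5.54, 4.49 and 4.66 CPM in knockout libraries. Its knockout values were all lower (log2 -0.89, SE 0.298, adjusted p = 0.0953, edgeR), with a log2 fold change of -0.46 that passed without wildtype replicate 1 (adjusted p = 0.0413, edgeR). Birc2 differed by log2 0.23 (adjusted p = 0.546).

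Mitochondrial factors that leave the organelle during apoptosis were present at moderate levels and none of the 4 passed, with or without wildtype replicate 1. Aifm1, the flavoprotein AIF, had 37.1, 59.4 and 57.2 CPM in wildtype and 63.0, 65.1 and 61.1 CPM in knockout libraries. Wildtype replicate 1 was the low one (log2 0.30, SE 0.185, adjusted p = 0.317, edgeR), and the log2 fold change was 0.11 without it. Endog, a mitochondrial nuclease, stood at log2 0.30 (adjusted p = 0.232), Htra2, a protease that cleaves inhibitors of apoptosis, at 0.20, and Diablo, the inhibitor antagonist SMAC, at -0.01.

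**Figure D3:**
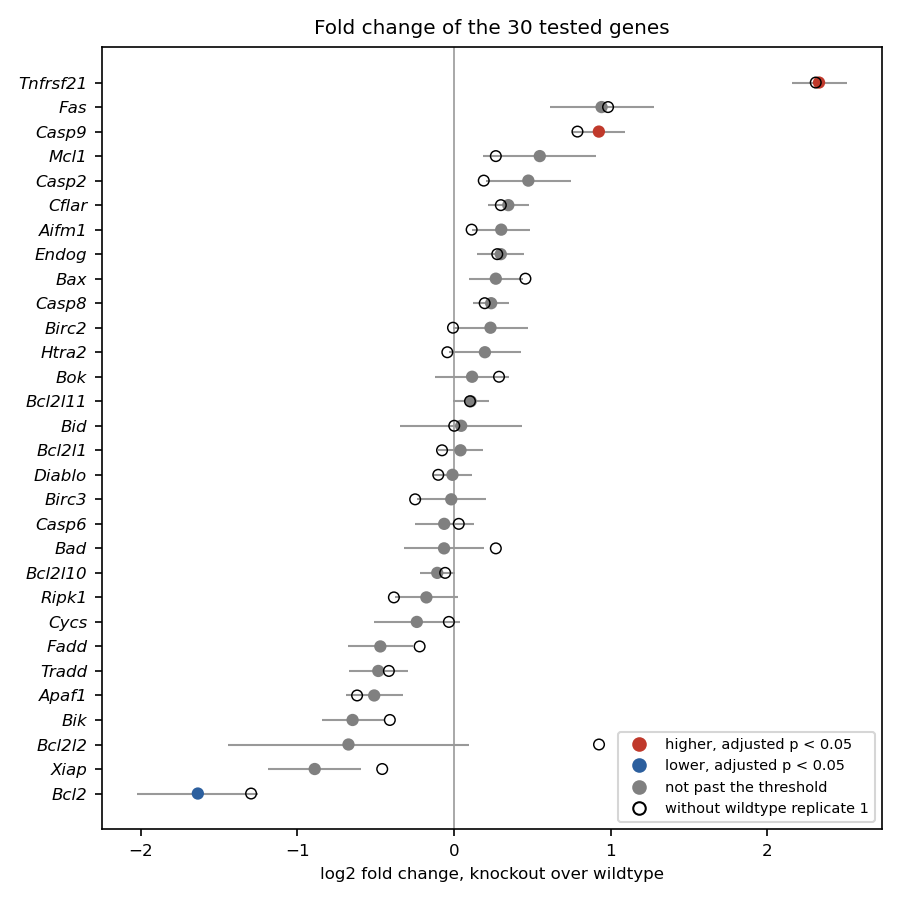
Log2 fold change, knockout over wildtype, of the 30 tested members, with bars of 1 SE; filled points are the fit of all 6 libraries and open circles the fit without wildtype replicate 1. Tnfrsf21 (2.33) and Casp9 (0.92) are higher and Bcl2 (-1.64) lower past the threshold. The open circles of Bcl2l1, Bcl2l2, Bad, Casp6, Birc2 and Htra2 lie on the other side of 0.

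The number of members called moved with the libraries in the fit, as did that of all genes. Without wildtype replicate 1, 4 rose (Tnfrsf21, Casp9, Bax and Cflar) and 6 fell (Bcl2, Bik, Apaf1, Ripk1, Birc3 and Xiap), 10 of 30 (33.3%) beside 34.4% of all tested genes. Without wildtype replicate 2 or 3 it was Tnfrsf21 and Casp9 (2 of 32 each, 6.25%), beside 5.9% and 6.02%, and without knockout replicate 1, 2 or 3 it was Tnfrsf21 alone (1 of 32, 31 and 30), beside 2.48%, 2.35% and 2.64%. The DESeq2 Wald test called 5, the same 3 with Bik and Xiap lower (16.7%, beside 17.9%), and limma-voom with sample quality weights 12 (40.0%, beside 39.7%). In each of these fits the share of members called stayed near that of all genes.

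Beyond the 35, 70 other apoptosis genes were read from the same fit, of which 53 were tested, 6 rose and 2 fell (15.1%, beside 11.2% of all genes); their median log2 fold change was -0.03. By far the largest change was that of Pmaip1, which encodes the BH3-only protein NOXA, an antagonist of MCL1. It had 0.432, 0.578 and 0.823 CPM in wildtype and 7.98, 7.08 and 6.51 CPM in knockout replicates 1 to 3. The groups were far apart, a 12.1-fold rise (log2 3.60, SE 0.261, adjusted p = 0.000384, edgeR), and the call held in each of the 15 alternatives, with log2 fold changes from 3.34 to 3.85. Bbc3, which encodes PUMA, was at 0 to 4 counts per library and was not tested.

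**Figure D4:**
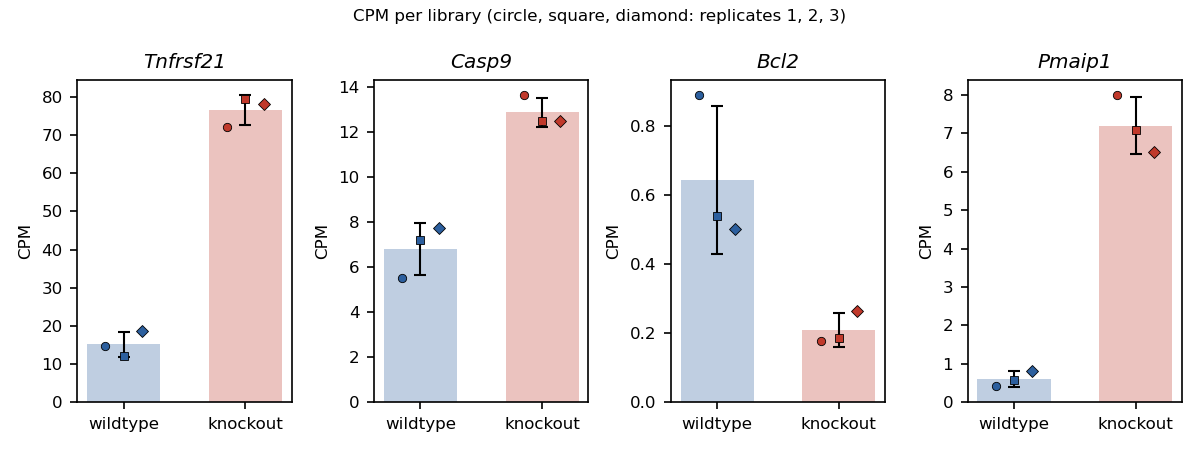
CPM of Tnfrsf21, Casp9, Bcl2 and Pmaip1 in each library (points), with the group mean (bar) and SD (error bar), n = 3 wildtype and 3 knockout libraries; each panel has its own axis. Tnfrsf21 goes from a mean of 15.2 to 76.5 CPM and Pmaip1 from 0.611 to 7.19 CPM, and in all 4 genes the groups do not overlap.

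The other 5 that rose were Edar (log2 1.39), the ectodysplasin receptor and a relative of the death receptors, Birc7 (1.33), an inhibitor of apoptosis also called livin, Daxx (0.69), a histone H3.3 chaperone first described as a FAS-binding protein, Parp1 (0.61), a DNA damage sensor, and Tnip1 (0.53), a partner of the TNF pathway inhibitor A20. The 2 that fell were Dap3 (log2 -0.80), a protein of the mitochondrial ribosome, and Casp8ap2 (-0.49), which also serves histone mRNA processing. Dap3 went from 270 ± 17.3 to 155 ± 4.98 CPM (SD, n = 3 each, adjusted p = 0.00551, edgeR) and kept its call in all 15 alternatives, whereas Edar, Birc7, Daxx, Parp1, Tnip1 and Casp8ap2 lost theirs without any 1 of the knockout replicates. Daxx, Parp1, Tnip1 and Casp8ap2 also lost it without wildtype replicate 2 or 3, and Edar without wildtype replicate 3. Several of these 8 thus have main roles outside cell death. Of the ligands, Fasl and Tnf had no count in any library, and Tnfsf10 (TRAIL) was lower in every knockout library (log2 -0.82) but did not pass (adjusted p = 0.0577, edgeR). It passed as lower without wildtype replicate 1 (log2 -0.85, adjusted p = 0.0165, edgeR), with DESeq2 and with limma-voom and sample quality weights.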

How the data were processed

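RNA was measured in 3 Prdm10 maternal knockout and 3 wildtype libraries of pooled GV oocytes (SMARTer cDNA, single-end reads, per the labels' protocols). The values the authors deposited are raw counts of reads per Entrez gene, made with STAR 2.7.11a and featureCounts 2.0.3 on GRCm38.p6, per the submitters' processing notes; strand setting, annotation and treatment of multi-mapping reads are not stated, so reads of overlapping genes and near-identical copies may be shared or missing. Of 27179 identifiers, 25275 were named from RefSeq and 18 from GENCODE M21.

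Genes were filtered with filterByExpr (minimum count 10; 14957 kept), scaled by TMM and tested for genotype by quasi-likelihood F tests (edgeR 4.0.16, R 4.3.3), Benjamini-Hochberg adjusted over all tested genes, with a threshold of 0.05 and no covariate. SE is the absolute log2 fold change over the square root of F. Adjusted p-values in the text are edgeR's unless another tool is named. CPM per kb divides CPM by the union of GENCODE exons; cDNA amplification may favour some transcripts or their ends, which this does not correct. The fit was tested on simulated data in which no library was set apart, so that test does not cover the effect of wildtype replicate 1. No molecular identifiers are described, so floors (3 counts) cover counting error only.

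The members and lists were chosen with earlier results of these data known. Values per library were given for called members, for uncalled ones with separate groups and an absolute log2 fold change of at least 0.58, and for the most abundant of each role; Bak1 and the counts of Fas were added after their values were seen. Of the other apoptosis genes, those called and Bbc3 and Pmaip1 were named by rule, and Fasl, Tnf and Tnfsf10 after their values were seen; some genes the rule covers are not reported here. Promoter motifs were also chosen after the calls were known. Alternatives were other scalings, filters and tests (DESeq2 1.42.0, limma 3.58.1), a replicate block and each library left out.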

Additional observations from a re-analysis of the deposited data

How the results depend on the processing

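The number of genes called over the whole table was 1676, and 1038 under the stricter filter (5 CPM in 3 libraries), 2671 with DESeq2 and 5943 with limma-voom and sample quality weights; with 1 library left out it ranged from 357 to 5199, the highest without wildtype replicate 1. The 3 members called became 5 with DESeq2 and 12 with quality weights, and 1 to 10 with 1 library left out, and the 8 other apoptosis genes became 20 with quality weights and 2 to 19 with 1 library left out. The labels give both groups replicates 1 to 3, but same-numbered libraries did not deviate together (correlations of -0.0583, 0.00997 and -0.0935), so the numbers were not taken to pair them; with a replicate block 537 genes, 1 member (Tnfrsf21) and 2 other apoptosis genes (Dap3 and Pmaip1) were called. The log2 ratio of anti-apoptotic to effector level was 7.25 in wildtype and 6.87 in knockout without length scaling, and 1.67 and 1.47 without Bcl2l10.

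Over the members and named genes, 474 of the alternative fold changes kept direction and side of the threshold, 43 lost and 18 gained the threshold in the same direction, and 25 changed sign; Tnfrsf21, Pmaip1 and Dap3 passed in all 15 alternatives, and Bcl2 was not tested under the stricter filter. The sign changes were all of members that passed neither in the fit of all libraries nor in that alternative, and the cause was not tested. With quality weights they were Bcl2l1 (-0.089), Bcl2l2 (0.53), Bad (0.25), Cycs (0.053), Birc2 (-0.016) and Htra2 (-0.051). With upper quartile scaling and with limma-voom they were Birc3 (0.011 and 0.032) and Diablo (0.0087 and 0.00051), and with the replicate block Birc3 (0.029). With 1 library left out the log2 fold changes ranged from -0.0769 to 0.14 for Bcl2l1, -1.15 to 0.93 for Bcl2l2, -0.0038 to 0.29 for Bok, -0.27 to 0.31 for Bid, -0.26 to 0.27 for Bad, -0.15 to 0.0297 for Casp6, -0.00693 to 0.41 for Birc2, -0.25 to 0.12 for Birc3, -0.10 to 0.0486 for Diablo and -0.043 to 0.38 for Htra2. Depth limits what can be said of Bak1, Bmf, Hrk, Tnfrsf10b, Tnfrsf1a, Fas, Bid and Bcl2, which had 37 counts or fewer in every library.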
